A study of Mus musculus with 6 samples.

Results

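The genes of RNA polymerase I and of ribosome assembly were examined for H3K79me2 (histone H3 with a dimethylated lysine 79) in N2a cells upon knockdown of Npm1. The 50 members were chosen by name, for roles in rRNA transcription, rRNA processing, snoRNP formation and subunit assembly. No measured value was used to pick them, but earlier results of these data were known. All 50 were found among the 21951 protein-coding genes of GENCODE mouse release 21 on mm10. N2a is an established mouse neuroblastoma cell line. Cells were transfected with the pLKO.1 plasmid coding for a non-targeting short hairpin RNA (shControl, CTR) or for 1 hairpin against Npm1 (shNPM1, NPM1 KD), put under puromycin 1 day later and fixed after 3 days in vitro, and chromatin was precipitated with an antibody against H3K79me2. Each group had 2 biological replicates (CTR 1, CTR 2, NPM1 KD 1 and NPM1 KD 2), so a single hairpin stands for the knockdown. The lists hold DNA-bound H3K79me2 and do not measure the level of NPM1.

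Ribosomes are built in the nucleolus. RNA polymerase I transcribes the large precursor rRNA there, small nucleolar ribonucleoproteins (snoRNPs) guide its chemical modification, and processome and assembly factors cut it, fold it and join it to ribosomal proteins. NPM1 is an abundant nucleolar protein with a role in these late steps, and H3K79me2, which the methyltransferase DOT1L lays down, typically covers the first part of transcribed genes.

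Each library came with a broad list of peaks, which joins neighbouring enriched stretches into domains, and a narrow list, which gives each peak a summit. Covered length is the number of bases under broad peaks in a window of the gene plus the 3 kb upstream of its start. Fold is the height of the highest narrow peak touching the window, as a ratio to the library's background. The broad lists held 34845 to 48764 peaks and the narrow lists 73801 to 88348. The background pileup, a relative measure of depth recovered from the narrow lists, was 11.9 and 7.65 in CTR (replicates 1 and 2, in this order throughout) and 8.99 and 11.8 in NPM1 KD, so CTR 2 was the shallowest library. Of 12 neuroblastoma and neuronal genes looked up, 7 (among them Phox2a, Hand2 and Gata2) had over 50% of their first 5 kb covered in every library, whereas Dbh, Nefl and Nefm had no broad peak. The 6 genes of other cell types (Alb, Cd3e, Cdh5, Gfap, Myod1 and Ptprc) had no broad peak. In such bulk chromatin, a larger share of cells with the mark and more of the mark per cell cannot be told apart.

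The starts of these genes are the sequences on which most of the peaks lie. The promoters of the 2 members with the highest mean fold, Noc2l and Mrto4, and of the 2 with the lowest, Dkc1 and Taf1b, are shown as the 250 bases before the start, 5′ to 3′ on the strand of the gene, from RefSeq on GRCm38.p6. Capitals mark CpG, the dinucleotide CG. These bases were not under a peak in all 4 genes. Broad peaks covered 100% of the 3 kb upstream of Noc2l and Mrto4 in every library. They covered 0% of it in Dkc1 and at most 1.67% in Taf1b. The RefSeq start of Taf1b lies 222 bp from the GENCODE start used for the windows, and the other starts are the same in both.
Noc2l, chr4:156235760-156236009, plus strand: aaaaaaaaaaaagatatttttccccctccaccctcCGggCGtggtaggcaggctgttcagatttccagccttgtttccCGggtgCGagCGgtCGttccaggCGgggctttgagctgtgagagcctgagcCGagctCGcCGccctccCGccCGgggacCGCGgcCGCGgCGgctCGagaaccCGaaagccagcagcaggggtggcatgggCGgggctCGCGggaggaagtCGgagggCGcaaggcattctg
Mrto4, chr4:139352577-139352826, minus strand: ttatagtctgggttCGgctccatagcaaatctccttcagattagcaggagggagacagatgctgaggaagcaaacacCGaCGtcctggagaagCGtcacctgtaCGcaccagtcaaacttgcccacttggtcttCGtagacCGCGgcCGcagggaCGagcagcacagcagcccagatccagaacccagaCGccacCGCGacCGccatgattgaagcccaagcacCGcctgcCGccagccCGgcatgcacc
Dkc1, chrX:75095604-75095853, plus strand: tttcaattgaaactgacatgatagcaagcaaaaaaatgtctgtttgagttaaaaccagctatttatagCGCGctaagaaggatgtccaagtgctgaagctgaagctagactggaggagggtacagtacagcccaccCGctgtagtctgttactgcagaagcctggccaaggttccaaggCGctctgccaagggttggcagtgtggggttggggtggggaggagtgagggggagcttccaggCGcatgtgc
Taf1b, chr12:24498331-24498580, plus strand: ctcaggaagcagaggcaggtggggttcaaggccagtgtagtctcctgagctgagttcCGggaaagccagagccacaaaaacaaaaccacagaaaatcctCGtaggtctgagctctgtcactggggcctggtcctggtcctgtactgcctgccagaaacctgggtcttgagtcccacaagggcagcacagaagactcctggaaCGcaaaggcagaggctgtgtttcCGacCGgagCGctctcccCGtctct
Noc2l held 24 CpG and Mrto4 17, against 5 in Dkc1 and 7 in Taf1b. The median was 15 over the 45 members with a RefSeq promoter, 16 over 9183 genes with H3K79me2 and 10 over all 16522 matched protein-coding genes, so the members were not set apart from other marked genes in CpG content. No promoter was matched for Gnl2, Bop1, Fbl, Tcof1 and Rrp12.

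The E-box CACGTG, which is its own reverse complement and thus the same on both strands, is the recognition sequence of the MYC family of transcription factors, textbook regulators of ribosome biogenesis. It was searched for from 250 bases before to 50 bases after the start. A match was present in 9 of 45 members (20%), in 17 of 89 matched genes of a wider list of ribosome biogenesis genes (19.1%) and in 5 of 60 genes of cytoplasmic ribosomal proteins (8.33%). The share was 8.09% over all 16522 promoters and 10.4% over the promoters of marked genes. The stretches around the first match of each of the 9 members are shown with the E-box in capitals.
Imp4, chr1:34439697-34439724, plus strand: cggtcttagacCACGTGacatcccaaat
Ltv1, chr10:13193093-13193120, minus strand: ccctgtggaccCACGTGtggagctgccg
Nop2, chr6:125131812-125131839, plus strand: tgtccctggatCACGTGtgttccggtgc
Pes1, chr11:3963966-3963993, plus strand: cctaggcagggCACGTGcgggaggaagt
Rrn3, chr16:13780473-13780500, plus strand: agcgccaaggtCACGTGcacacgcctct
Tsr1, chr11:74898093-74898120, plus strand: cacttggtgcaCACGTGgactgcagaat
Utp20, chr10:88826765-88826788, minus strand: ggcactaactaCACGTGaggaaaa
Utp4, chr8:106893644-106893671, plus strand: gcgcaagcgcgCACGTGgggccggggcg
Wdr43, chr17:71616221-71616248, plus strand: gcccgggcgaaCACGTGgctgccgcgga
Counted from 1 at the first transcribed base and from -1 at the base before it, the match began at -121 in Imp4, -60 in Nop2 and -215 in Rrn3, and lay within the first 50 bases of the transcribed part in the other 6. Rrn3 held 2 matches. The median of the mean fold over the 4 libraries was 18.2 in the 9 members with an E-box and 22.0 in the 36 without, and a match in these letters does not show a bound site.

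H3K79me2 was present at all 50 members. Each had a broad peak in its window in all 4 libraries, against 54.0% of protein-coding genes with a broad peak in at least 1 library (11863 genes, called marked genes here). The members' median share of the window under broad peaks was 67.3% and 65.8% in CTR, and 71.5% and 66.8% in NPM1 KD. Over all marked genes the medians were 46.4%, 42.9%, 51.1% and 47.9%. The median fold of the members was 23.9 and 23.7 in CTR, and 21.7 and 19.9 in NPM1 KD, compared with 14.9, 14.2, 15.1 and 12.9 over the 11314 genes with a narrow peak in all 4 libraries. In comparisons of fold or height below, all genes means these 11314. By mean fold 24 of 50 members stood in the top 25% of them (22.6 and above). Both figures were thus higher for the members in every library. Of the related lists, 78 of 80 genes of cytoplasmic ribosomal proteins were marked, with median folds of 22.7 to 30.2, and 108 of 108 other ribosome biogenesis genes were marked, with median folds of 19.95 to 23.8.

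**Figure D1:**
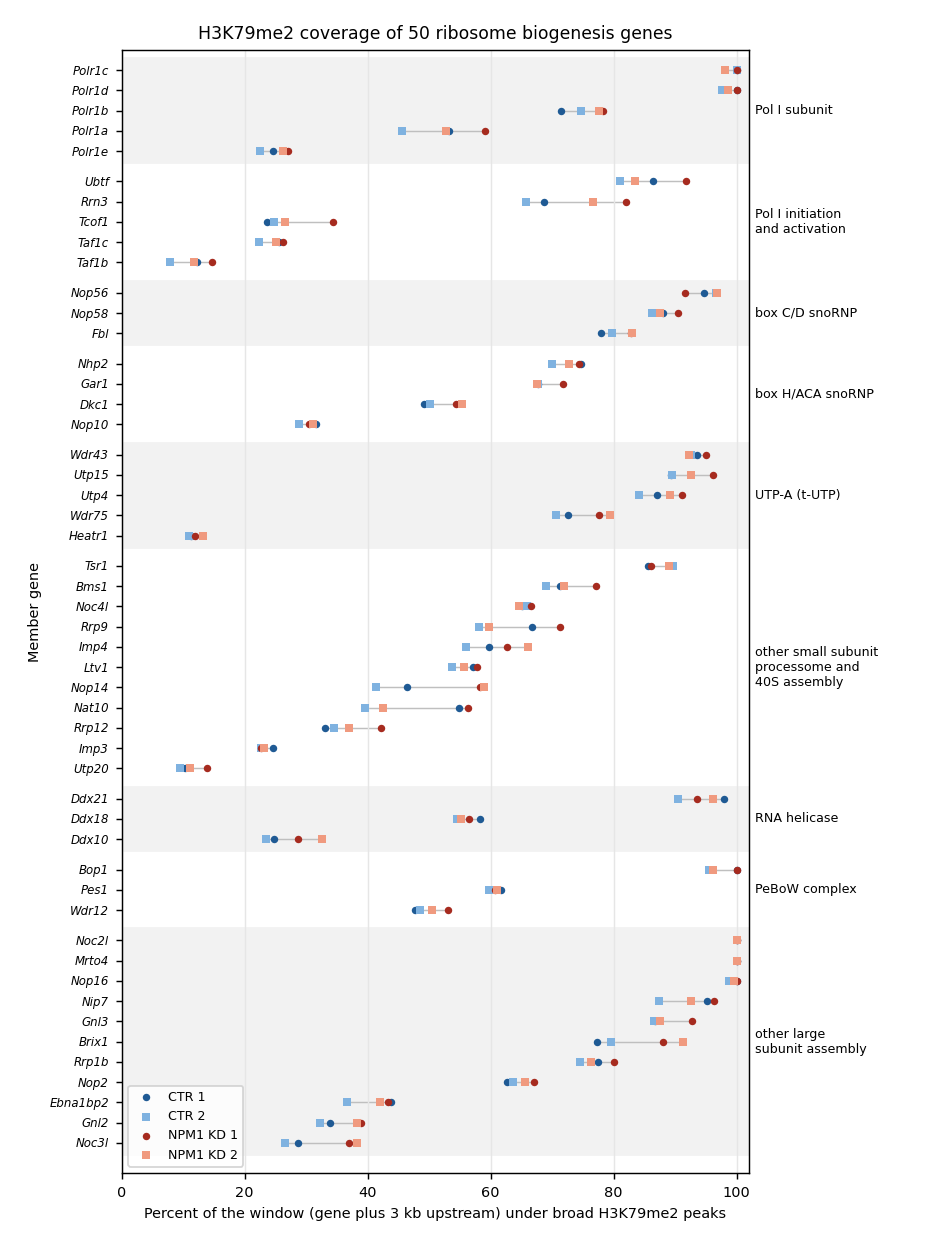
Percent of the window (gene plus 3 kb upstream) under broad H3K79me2 peaks for each of the 50 members, grouped by role, with 1 point per library (circles, replicate 1; squares, replicate 2; blue, CTR; red, NPM1 KD) and a grey line from lowest to highest. Mrto4 and Noc2l sit at 100% in every library, and Heatr1, Utp20 and Taf1b between 7.83% and 14.7%.

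**Figure D2:**
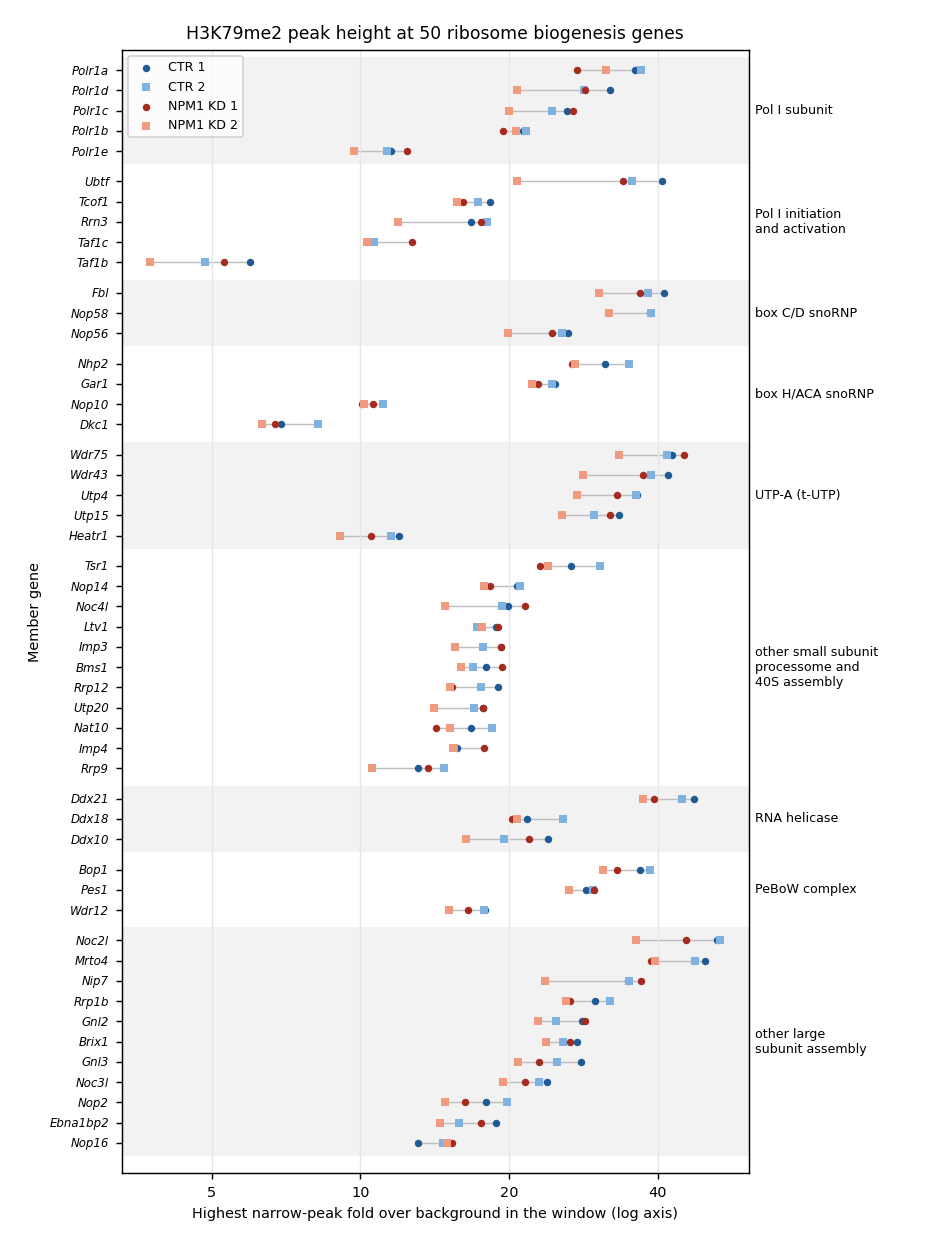
Highest narrow-peak fold over background (log axis) for each member, grouped by role, with the same symbols. NPM1 KD 2 is the lowest of the 4 libraries in 38 of 50 members, and the members span from Taf1b at 3.76 to Noc2l at 53.5.

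The subunits of RNA polymerase I ranged widely. Polr1c (chr17:46243920-46248054), a subunit shared with RNA polymerase III, was covered over 100% of its window in CTR 1, CTR 2 and NPM1 KD 1 and over 98.2% in NPM1 KD 2. Polr1d, the other shared subunit, was covered over 97.7% to 100%. At the other end Polr1e (chr4:45018583-45036565), which codes for an associated factor, was covered over 24.5% and 22.5% in CTR and 27.0% and 26.2% in NPM1 KD. The largest subunit gene, Polr1a, had folds of 36.0 and 37.0 in CTR and 27.4 and 31.5 in NPM1 KD. Its highest summit lay at -1757 to -1908 bp from the start (negative values lie upstream), on the side of the neighbouring gene Ptcd3. Polr1b, the second-largest subunit, had folds of 21.3 and 21.6 in CTR and 19.4 and 20.7 in NPM1 KD. In both genes the NPM1 KD libraries lay below the CTR libraries, although for Polr1b by less than the counting error of a single library (95% interval 18.9 to 24.0 in CTR 1, exact Poisson on the summit pileup, covering counting error only).

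Among the genes for initiation and activation of RNA polymerase I, Ubtf (chr11:102304560-102319742), the upstream binding factor that opens rDNA chromatin, was the most covered, over 86.4% and 81.1% in CTR and 91.7% and 83.5% in NPM1 KD. Its folds were 40.8 and 35.5 in CTR and 33.9 and 20.7 in NPM1 KD. Both knockdown libraries were below both controls, and NPM1 KD 2 stood far below the other 3. Rrn3, the initiation factor that brings the polymerase to the promoter, was covered over 68.7% and 65.7% in CTR and 82.0% and 76.7% in NPM1 KD. Tcof1, the treacle protein, was covered over 23.6% and 24.7% in CTR and 34.4% and 26.6% in NPM1 KD. Taf1b and Taf1c code for subunits of the selectivity factor SL1. Taf1b (chr12:24498359-24558539) had the lowest fold of all members, 5.98 and 4.86 in CTR and 5.31 and 3.76 in NPM1 KD, and Taf1c had folds of 10.3 and 10.6 in CTR and 12.7 and 10.3 in NPM1 KD. Among the 11314 genes with a narrow peak in all 4 libraries these 2 stood at percentiles 13.7 and 38.3 by fold, below Ubtf at 89.8.

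The core proteins of the box C/D snoRNPs, which methylate rRNA, were all strongly marked. Fbl, the methyltransferase fibrillarin (chr7:28169710-28179269), had folds of 41.1 and 38.3 in CTR and 36.8 and 30.4 in NPM1 KD. Nop58 had folds of 38.6 and 38.7 in CTR and 31.7 and 31.9 in NPM1 KD, and Nop56 (chr2:130274430-130279313) had 26.3 and 25.6 against 24.4 and 19.9. All 3 were lower in both NPM1 KD libraries than in both CTR libraries, as were 28.0% of all genes and 49.5% of the 25% of genes with the highest mean fold. The share of the window covered was 91.6% to 96.9% in Nop56 and 77.9% to 82.9% in Fbl, the least covered of the 3.

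The box H/ACA proteins, which serve in pseudouridylation, were more uneven. Nhp2 (chr11:51619735-51623714) had folds of 31.3 and 34.9 in CTR and 26.8 and 27.2 in NPM1 KD, and Gar1 of 24.8 and 24.4 in CTR and 22.9 and 22.2 in NPM1 KD. Dkc1, which codes for the pseudouridine synthase dyskerin on the X chromosome (chrX:75095854-75109777), had folds of 6.91 and 8.21 in CTR and 6.71 and 6.34 in NPM1 KD. Its covered share was 49.2% and 50.2% in CTR and 54.3% and 55.3% in NPM1 KD. The groups did not overlap in either measure, but the narrow-list lengths (8050 and 7057 bp against 7105 and 8234 bp) and the centred heights overlapped. Both knockdown folds lay within the counting interval of CTR 1 (5.55 to 8.49). Of that of CTR 2 (6.43 to 10.3), NPM1 KD 1 lay inside and NPM1 KD 2 just below. Nop10, the smallest of these genes (chr2:112261926-112263269), had folds between 10.1 and 11.1. In CTR 1 and NPM1 KD 2 the summit lay 1371 and 1629 bp after the start, past the end of this gene of 1344 bp.

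The UTP-A genes code for the t-UTP complex, the first part of the small subunit processome to join the nascent rRNA. Wdr75 had folds of 42.7 and 41.9 in CTR and 45.3 and 33.3 in NPM1 KD, and Wdr43 (chr17:71615895-71659031) of 42.0 and 38.7 in CTR and 37.3 and 28.2 in NPM1 KD. They stood at percentiles 97.1 and 94.9 of the 11314 genes with a narrow peak in all 4 libraries. Heatr1 of the same complex (chr13:12395027-12440289) stood at 37.3, with folds of 11.9 and 11.6 in CTR and 10.5 and 9.08 in NPM1 KD. The covered share was 92.4% to 95.1% in Wdr43, 70.6% to 79.4% in Wdr75 and 11% to 13.3% in Heatr1. Utp15 and Utp4 had folds of 25.6 to 33.4 and 27.5 to 36.3.

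In the other 11 genes of the small subunit processome and its assembly the median of the mean folds was 17.5. Tsr1 (chr11:74898071-74909342), an assembly factor of the late pre-small subunit, was highest, with folds of 26.7 and 30.5 in CTR and 23.1 and 24.0 in NPM1 KD. Rrp9, a protein of the U3 snoRNP, was lowest, with folds of 13.1 and 14.8 in CTR and 13.7 and 10.6 in NPM1 KD. Utp20 (chr10:88746607-88826804), a very large processome protein, was covered over 10.3% and 9.47% in CTR and 13.8% and 11.2% in NPM1 KD, the smallest share of this role. Nop14, needed for maturation of the small subunit rRNA, was covered over 46.4% and 41.3% in CTR and 58.4% and 59.0% in NPM1 KD. Its 2 groups lay further apart than the spread within either.

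Of the 3 RNA helicases, Ddx21 (chr10:62580251-62602281), which acts in rRNA transcription and processing, was highest. Its folds were 47.3 and 44.9 in CTR and 39.2 and 37.3 in NPM1 KD, and both knockdown libraries were below both controls. Ddx18 was covered over 54.5% to 58.3%. Ddx10 (chr9:53098635-53248053), the longest member at 149419 bp, was covered over 24.8% and 23.4% in CTR and 28.7% and 32.6% in NPM1 KD.

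The PeBoW complex, made of Pes1, Bop1 and Wdr12, processes the precursor of the large subunit rRNAs. Bop1 (chr15:76452989-76477277) had folds of 36.9 and 38.6 in CTR and 33.05 and 31.0 in NPM1 KD. Its highest summit lay at -2166 to -2202 bp from the start, on the side of the neighbouring gene Hsf1. Pes1 had folds of 28.6 and 29.6 in CTR and 29.7 and 26.5 in NPM1 KD, and Wdr12 (chr1:60069785-60098645) of 17.9 and 17.8 in CTR and 16.5 and 15.1 in NPM1 KD. Bop1 and Wdr12 were lower in both knockdown libraries, a pattern that 28.0% of all genes shared, and Pes1 overlapped.

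The 11 other genes of large subunit assembly held the members with the most H3K79me2. Noc2l (chr4:156236010-156247616), a nucleolar protein of large subunit export, had folds of 52.9 and 53.5 in CTR and 45.6 and 36.1 in NPM1 KD. Mrto4 (chr4:139347435-139352576), a placeholder for the stalk protein on the maturing large subunit, had folds of 49.7 and 47.6 in CTR and 38.8 and 39.4 in NPM1 KD. Both windows were covered to 100% in every library, so covered length could not rise there, and in both genes the knockdown libraries were lower in fold than the controls. Noc3l (chr19:38788128-38819237), a partner of Noc2l, was the least covered of this role, over 28.6% and 26.6% in CTR and 37.0% and 38.3% in NPM1 KD. Nop16, with folds of 13.1 and 14.7 in CTR and 15.3 and 14.9 in NPM1 KD, was the only member with both knockdown libraries above both controls in fold (8.91% of all genes). Its highest summit lay at -1277 and 896 bp from the start in CTR and at -1260 and 791 bp in NPM1 KD. Its folds thus come from both sides of the start.

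The mark followed the starts of the members closely. The annotated start lay under a broad peak in all 4 libraries in 38 of 50 members (76.0%), compared with 41.1% of marked genes. It did so in 80.6% of the other ribosome biogenesis genes, 79.5% of the marked genes of cytoplasmic ribosomal proteins and 72.1% of the top 25% of genes by fold. In the 250 bp around a point 1375 bp after the start a broad peak covered on average 96.5% and 98.0% of the members in CTR and 98.0% and 97.9% in NPM1 KD, against 79.4%, 77.9%, 81.4% and 79.9% of all marked genes. Around 10125 bp after the start this share was 45.9%, 45.2%, 48.4% and 49.1% in the members and 48.5%, 46.0%, 51.7% and 49.6% in all marked genes. The members are shorter (median 16114 against 23644 bp), and this point lies beyond the end of some, such as Fbl (9560 bp). In members over 5 kb the median covered share beyond the first 5 kb was 53.0% and 53.0% in CTR and 59.0% and 58.7% in NPM1 KD. Over all marked genes it was 34.7%, 30.5%, 40.7% and 37.1%, and in the top 25% by fold 77.6% to 85.9%. The median distance from the start to the highest summit was 802 bp in the members and 1113 bp over all genes.

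**Figure D3:**
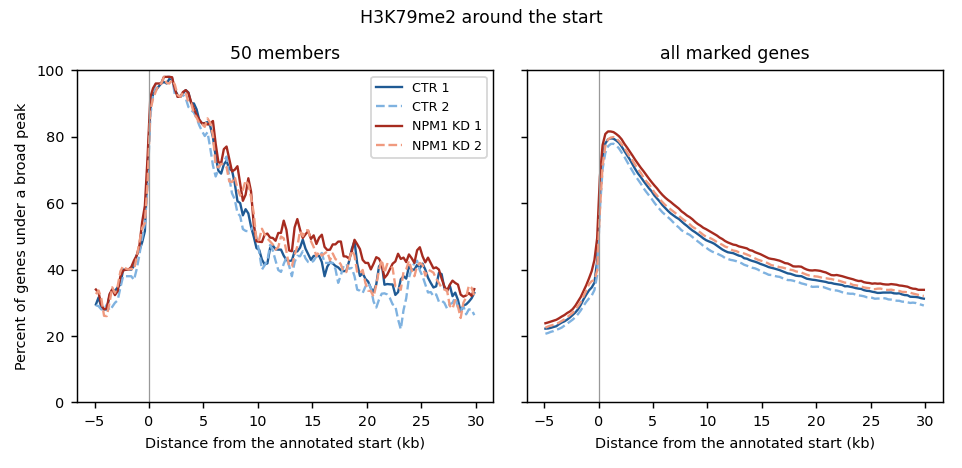
Percent of genes under a broad H3K79me2 peak in bins of 250 bp from 5 kb before to 30 kb after the annotated start, 1 line per library, for the 50 members (left) and all marked genes (right). The members reach a higher plateau just after the start than marked genes do, and the lines of the 4 libraries run close together there.

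A few members departed from this picture. The GENCODE start was under no broad peak in any library in Dkc1, Wdr75, Heatr1 and Gnl2. The RefSeq start is the same in Dkc1 and Wdr75, lies 348 bp away in Heatr1 and was not matched for Gnl2. The part of the annotation in this was not tested. In Dkc1, Wdr75 and Heatr1 the mark began inside the first 5 kb, which was covered over 93.6% to 95.8%, 96.2% to 97.4% and 89.0% to 91.8%. Gnl2, a nucleolar GTPase of large subunit assembly, was bare over its first 5 kb and had its highest summit 13763 to 13931 bp after the annotated start. The highest summit lay before the start in 7 members (Polr1a, Utp4, Imp4, Noc4l, Bop1, Nip7 and Nop16, by the median over libraries), and all 7 have a divergent neighbour. This is a coding gene on the other strand whose start lies at most 1000 bp upstream or less than 100 bp downstream of the member's start.

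Such head-to-head neighbours were frequent among the members, 15 of 50 (30.0%) against 12.5% of marked genes. In the 15 members the upstream 3 kb was covered to a median of 100% in every library. In the 35 members without such a neighbour the median was 6.43% and 6.03% in CTR and 10.5% and 4.83% in NPM1 KD. There were exceptions in both directions. Tsr1, Wdr12 and Noc2l have no neighbour by this rule, yet their upstream 3 kb was covered to 100% in every library. Other coding genes do overlap the windows of Tsr1 (Sgsm2 and Srr), Wdr12 (Carf), Noc2l (Plekhn1 and Samd11), Nop56 (Idh3b) and Rrp9 (Parp3). The upstream 3 kb of Ubtf, Nop56, Rrp9 and Ddx21, likewise without a divergent neighbour, was covered over 79.4% to 89.3%, 77.8% to 91.8%, 65.5% to 78.0% and 44.8% to 83.3%. Conversely, Ebna1bp2 has a divergent neighbour and was covered there over 1.2% to 3.0%, and Nop14 over 0% to 44.6%. Examples of the head-to-head pairs are Polr1a with Ptcd3, Mrto4 with Emc1, Bop1 with Hsf1, which codes for the heat shock factor, and Gnl3, the nucleolar GTPase nucleostemin, with Pbrm1. In all, 31 windows overlapped another coding gene, and there the 2 genes' shares of a peak cannot be told apart. In 6 members (Nop56, Nop58, Dkc1, Wdr43, Tsr1 and Gnl3) the gene also hosts annotated snoRNAs.

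Whether the knockdown changed the extent of H3K79me2 over these genes was tested with limma on log2(covered bp + 1000) over all 11863 marked genes, with Benjamini-Hochberg adjustment. No member passed an adjusted p of 0.05, the smallest being 0.249 (Noc3l), and over all genes 1 was called higher (0.00843%) and 0 lower (0.0%). In simulated data with a log2 change of 0.5 this fit called 0 of 200 changed genes. A lack of calls thus does not show a lack of change of that size. At an unadjusted p under 0.05, 8 members were higher in NPM1 KD (Rrn3, Dkc1, Wdr75, Nop14, Ddx10, Gnl2, Brix1 and Noc3l) and 0 lower. The background of such calls was 14.8% of genes higher and 0.438% lower, so 8 of 50 was close to what all genes showed. The median log2 change was 0.07 in the members and 0.08 over all genes. It was positive in 43 of 50 members and in 83.1% of all genes. With each library centred on its median covered length it was negative in 34 of 50 members, with a median of -0.06, and in 61.9% of all genes.

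Both NPM1 KD libraries were covered over a greater length than both CTR libraries in 22 of 50 members, and over a shorter one in 0. Of all marked genes 46.7% showed the first pattern and 2.89% the second, which leaves the members near the background. In the narrow lists the counts were 26 members higher and 1 lower (Gnl3), with 42.1% and 3.65% of genes. In both kinds of list together 15 members were higher (31.5% of genes) and 0 lower (0.953%). CTR 2, the shallowest library, had the shortest coverage in 33 of 50 members and in 62.7% of all marked genes. NPM1 KD 1, the next shallowest (background pileup 8.99), had the longest coverage in 26 members and in 58.6% of all marked genes. Without CTR 2 the knockdown libraries were above CTR 1 in 23 members (51.3% of genes) and below in 7 (13.8%). Without CTR 1, 42 members were above (72.8% of genes) and 1 below (5.3%). Without NPM1 KD 1 the counts were 23 above (52.6%) and 4 below (14.4%), and without NPM1 KD 2 they were 35 (73.9%) and 1 (5.67%). The part of depth in this was not tested. Of the related lists, 42 of 108 other ribosome biogenesis genes were longer in both knockdown libraries and 3 shorter, as were 23 and 4 of the 78 marked genes of cytoplasmic ribosomal proteins. None of these genes passed the adjusted threshold either, in length (smallest 0.27 and 0.226) or in height (0.607 in both).

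Noc3l, Nop14 and Ddx10 had the largest log2 differences in length among the 15 members whose groups were apart in both kinds of list. In Noc3l 9762 and 9067 bp were covered in CTR and 12626 and 13056 bp in NPM1 KD (log2 change 0.41 ± 0.05, SE, adjusted p = 0.249 by limma). In Nop14 the lengths were 11409 and 10167 bp in CTR and 14364 and 14515 bp in NPM1 KD (0.39 ± 0.07, adjusted p = 0.272). In Ddx10 they were 37773 and 35725 bp in CTR and 43682 and 49678 bp in NPM1 KD (0.33 ± 0.09, adjusted p = 0.303). In each of the 3 the groups were apart, and none passed the adjusted threshold. The differences were smaller under some other settings, 0.21 in Noc3l and 0.20 in Nop14 with the narrow lists, and 0.06 in Ddx10 when only peaks reaching a −log10 q of 5 were kept. From 3 kb before to 5 kb after its start Ddx10 had a log2 change of -0.01, and its first 5 kb, covered to 100% in every library, could not gain length.

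Summed over the 50 windows, the rest of the gene beyond its first 5 kb was covered over 447 and 418 kb in CTR and 496 and 473 kb in NPM1 KD. The mean difference was 52.4 kb or 12.1% (9.04% over all marked genes), and Ddx10 alone gave 9980.5 bp of it. Over the whole windows the difference was 57.5 kb or 8.02%, close to the 8.12% over all marked genes. The first 5 kb was covered over 221 and 220 kb in CTR and 223 and 221 kb in NPM1 KD, a difference of 0.772% (3.43% over all marked genes), and here 2 members, Rrp9 and Imp4, were longer in both knockdown libraries (15.7% of genes) and 1, Heatr1, shorter (3.13%). The upstream 3 kb was covered over 66.4 and 63.5 kb in CTR and 69.2 and 67.6 kb in NPM1 KD, a difference of 5.35% (10.0% over all marked genes). There 6 members were longer in both knockdown libraries (16.2% of genes) and 1, Ddx10, shorter (2.58%). The first 5 kb of most members was already fully covered, with a median of 100% in each library. With 2 libraries against 2 an exact permutation test cannot reach a p of 0.05, so these sums carry no p. Of the 43 members with a gene longer than 5 kb, 20 had a longer covered rest in both knockdown libraries (39.5% of such genes) and 1, Wdr43, a shorter one (2.36%).

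**Figure D4:**
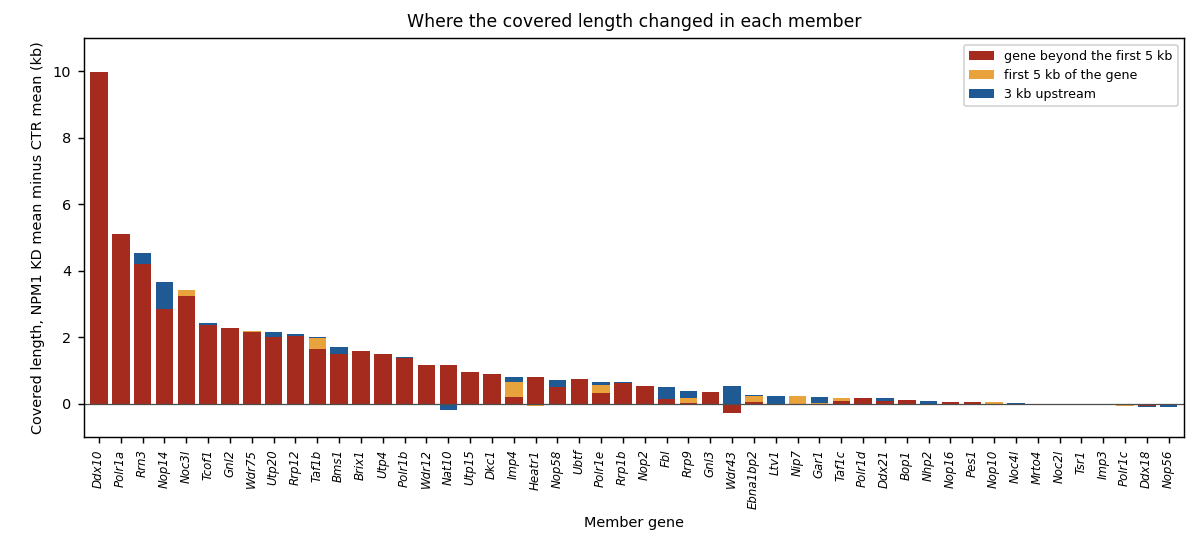
Mean covered length in NPM1 KD minus that in CTR (kb) for each member, stacked by part of the window. Ddx10 stands highest, and in most members above 0 the red part, the gene beyond its first 5 kb, makes up nearly all of it.

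The height of the mark differed in the opposite direction. The fold was lower in both NPM1 KD libraries than in both CTR libraries in 27 of 50 members and higher in 1, whereas 28.0% of all genes were lower and 8.91% higher. Among the 25% of genes with the highest mean fold, to which 24 members belong, 49.5% were lower. After each library was centred on its median, 20 members were lower and 3 higher (Taf1c, Bms1 and Imp4), with 24.2% and 16.9% of genes and 48.7% of the top 25% lower. NPM1 KD 2 had the lowest fold in 38 of 50 members and in 62.6% of all genes. Without it NPM1 KD 1 lay below both CTR libraries in 27 members (32.3% of genes) and above them in 13 (40.1%), and without NPM1 KD 1 the lower members numbered 46 (69.1% of genes).

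By limma on log2 of the fold, centred per library, no member passed an adjusted p of 0.05 (smallest 0.607), while 10 genes (0.0884%) were called higher and 5 (0.0442%) lower. Here too a simulated log2 change of 0.5 was called in 0 of 200 genes, so smaller changes could not be told from none. At an unadjusted p under 0.05, 2 members were lower, Ubtf and Noc2l, and 0 higher, with 4.0% and 4.17% of all genes. Ubtf had a centred log2 change of -0.46 ± 0.18 (SE, adjusted p = 0.607), which was -0.22 without NPM1 KD 2 and -0.70 without NPM1 KD 1. Noc2l had -0.33 ± 0.12 (adjusted p = 0.607). Wdr43, with the next largest moderated t in this direction, had -0.25 ± 0.13, which was -0.17 without NPM1 KD 2. With a centring that follows height the changes were -0.29 in Ubtf, -0.08 in Noc2l and -0.05 in Wdr43. The largest in the other direction were Taf1c (0.19 ± 0.12), Nop16 (0.18 ± 0.14) and Imp4 (0.15 ± 0.12), each less than 2 SE from 0. That of Nop16 was 0.07 without CTR 1, 0.09 without NPM1 KD 2 and 0.30 without CTR 2.

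The median centred log2 change was -0.15 in the members, -0.03 over all genes, -0.16 in the top 25%, -0.08 in the other ribosome biogenesis genes and -0.22 in the genes of cytoplasmic ribosomal proteins. The change followed height: over 11314 genes it had a Spearman rho of -0.514 with the log2 mean fold, a description across genes, which are not independent and share the same libraries. It was negative in 42 of 50 members with centring on the median (56.2% of all genes) and in 45 without centring (68.1%). With a centring that follows height it was negative in 32 of 50 (49.8% of all genes), with a median of -0.03. Set against genes of similar height, the median of the members was thus close to 0.

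**Figure D5:**
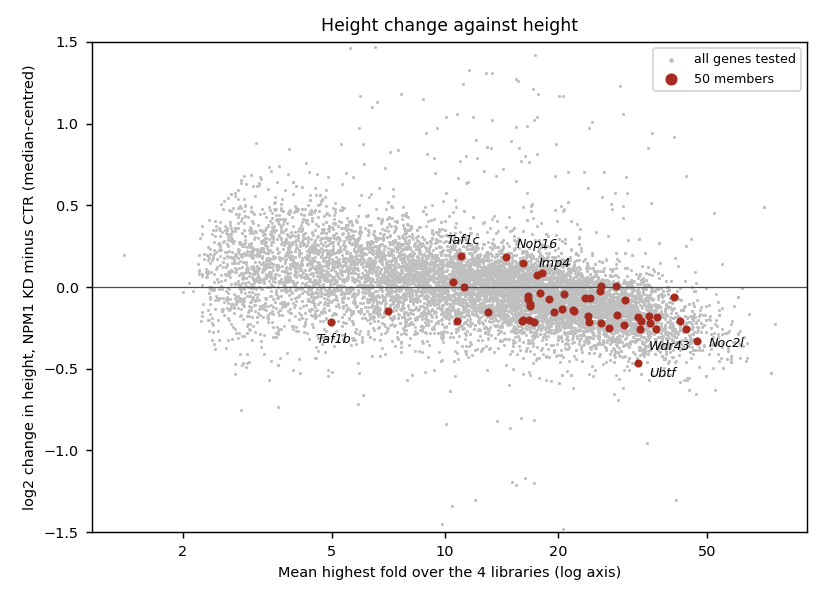
Centred log2 change in peak height, NPM1 KD minus CTR, against the mean fold over the 4 libraries (log axis), for all genes tested (grey) and the 50 members (red). The grey cloud tilts downward with height and the members lie along it, with Ubtf and Noc2l lowest, and 29 genes beyond 1.5 log2 units are outside the axis.

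Longer coverage and lower height met in 12 members, where both knockdown libraries had a longer covered length and a lower fold than both controls: Polr1b, Tcof1, Fbl, Dkc1, Utp4, Heatr1, Nop14, Rrp12, Wdr12, Nop2, Gnl3 and Noc3l. Over all genes measured in both ways 11.2% showed this pattern, and in the top 25% by mean fold 19.5% did. The 12 come from every role but the RNA helicases. In the narrow lists Polr1b, Fbl, Heatr1, Nop14, Rrp12 and Noc3l were longer too, Gnl3 was shorter and the others overlapped. In centred height Polr1b and Dkc1 overlapped. Utp4 is a case in which the window matters, because its highest narrow peak also spans the divergent gene Chtf8. The summit of that peak lay at -6620 and -6779 bp from the start in CTR (negative values lie upstream), and at 237 and -2561 bp in NPM1 KD. With peaks counted only where the summit lies inside the window, its folds were 4.11 and 6.82 in CTR and 33.05 and 27.5 in NPM1 KD (adjusted p = 0.0182 by limma), the single case of a member passing the threshold, and in the opposite direction to its whole peak.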

How the data were processed

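H3K79me2 was measured by ChIP-seq (paired-end reads) in 2 CTR and 2 NPM1 KD libraries of N2a cells. The pooled input of each group (2 in all) had no peak list and was not used here. By the methods of the study, reads were aligned to mm10 with Bowtie2 (2.3.4.1 in the submitters' processing notes), reads with a mapping quality of 5 or less were removed, and peaks were called per library with MACS2 (2.2.6 in those notes). Whether the input was the control in calling is not given in the sources used here. The names of broad peaks carry a word for filtered reads and those of narrow peaks do not. The peak score deposited by the authors is 10 times −log10 q. Folds deposited by the authors are ratios of pileup to background, taken at the summit for narrow peaks and over the whole peak for broad ones. Their deposited −log10 p and −log10 q were used to recover the background pileup and to filter.

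From these lists covered length and highest fold were computed per gene window (gene plus 3 kb upstream, GENCODE mouse release 21) with Python 3.11.15, numpy 2.4.6 and pandas 2.3.3, and tested with limma 3.58.1 in R 4.3.3 (pseudocount 1000 bp, threshold 0.05). Read counts were not used here. Pileup (95.6% to 99.5% of tall peaks within 0.1 of a whole number) gave the counting intervals. Both fits were also tested on simulated data, with means and spreads taken from the measured values. Of 200 genes given a log2 change of 0.5 each fit called 0, and of 200 given a change of 1 they called 103 (length) and 81 (height).

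Genes named with every library's values were the most and least covered of each role, the 3 with the largest log2 gain in length among members apart in both kinds of list, and the 3 with the largest moderated t in height per direction. Other members were named after their values were seen. Members and lists were chosen with earlier results of these data known. The alternatives changed the list, peak threshold, window, pseudocount, gene filter, centring, replicate block and libraries. The summit rule, the height-following centring and the top-25% background were added after the data were seen. The p-values measure the spread between passages of 1 cell line. Values of 2 marker genes are not reported here.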

Additional observations from a re-analysis of the deposited data

How the results depend on the processing

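No member passed the adjusted threshold in covered length under any of the 14 alternatives run, or in height under 13 of 14. The exception was the summit rule, under which 1 member, Utp4, was called. That fit held 48 members, because Nop10 and Imp3 had no summit inside the window in at least 1 library. The counts of all called genes were unstable, and the cause was not tested. For covered length, where 1 gene was called higher and 0 lower, 0 were called with narrow lists, lists of equal size, the start window (3 kb before to 5 kb after), all protein-coding genes or the replicate block, 0 without any 1 of the 4 libraries, 2 (all higher) with centred libraries, 5 (all higher) over all GENCODE genes, and 21 (20 higher, 1 lower) with a −log10 q of at least 5. For height, where 15 genes were called (10 higher, 5 lower), the counts were 47 (22 higher, 25 lower) with broad-peak folds, 39 (27 and 12) over all GENCODE genes and 7 (3 higher) with no centring. The gene body alone gave 16 higher, the start window 3 lower and the summit rule 6 higher. Leaving out 1 library gave 29 to 129 calls (20 to 108 higher, 9 to 39 lower), with the lone library assumed to vary like the others. The replicate block gave 20 (15 higher). The members' median log2 change in length was -0.0625 with centred libraries and 0.0323 to 0.0878 without 1 library. Their median in height was -0.0763 with broad-peak folds, -0.0294 with the height-following centring and -0.167 to -0.102 without 1 library. Ddx10 reversed in length in the start window (-0.0116). Members below in both NPM1 KD libraries numbered 1 in place of 0 with narrow lists, the stricter q or the gene body, and 3 in the start window, where 8 were above in place of 22. The members' median covered share was 6.59 percentage points higher in NPM1 KD over the gene body, against 2.67 over the window and 0.309 to 5.02 without 1 library. Same-numbered libraries deviated together with a correlation of 0.259 in length and 0.204 in height. Each replicate had its own passage and transfection batch by the study's methods, but neither they nor the labels say that CTR and NPM1 KD libraries of the same number shared one, so the replicate block was kept as an alternative only.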
